A study of Mus musculus with 6 samples.

Results

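The small RNA libraries of thymic Treg cells held fragments of Klf2, S1pr1, Ccr7, Il7r, Cd44 and Cd69, 6 genes chosen for their part in thymocyte maturation, egress from the thymus and recirculation, out of 54547 gene identifiers counted in each library. All 6 were found by symbol in the GENCODE vM21 annotation. The samples were Treg cells sorted from pooled thymi of 7-week-old mice, with 3 libraries from wild-type mice (WT) and 3 from mice homozygous for a germline deletion of the miR-181a-1 and miR-181b-1 genes (miR-181a/b-1-/-, called KO below). The strain background is labelled C5BL6/N for both genotypes. No reporter separated newly formed from older Treg cells in the sort, as far as the labels state, so a library holds whatever mixture of both the thymi contained, and the surface markers of the sort are not given in the sources used here. RNA was captured with a kit for small RNA, so counts on these protein-coding genes are counts of short RNA fragments that aligned uniquely to their exons.

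Developing T cells leave the thymus once they have matured in its medulla. The transcription factor KLF2 is switched on late in this maturation and drives expression of S1PR1, the receptor that guides cells along sphingosine-1-phosphate into the blood, while the activation marker CD69 binds S1PR1 and holds it inside the cell. CCR7 directs cells to the medulla and later to lymph nodes. The interleukin-7 receptor alpha chain, encoded by Il7r, supports survival of mature T cells, and CD44, an adhesion receptor for hyaluronan, marks antigen-experienced cells. Thymic Treg cells comprise newly formed cells and cells that have stayed in or returned to the thymus, and the 6 genes were compared between genotypes with regard to this mixture.

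The deleted genes gave no usable check of the genotype, since Mir181a-1 had 0, 1 and 0 counts in WT replicates 1, 2 and 3 and 0 in each KO library, and Mir181b-1 had 0 in all 6. Libraries held between 168293 and 307840 counts on genes, of which 21.1% to 26.8% fell on protein-coding genes. Treg markers were present, with 17 to 39 counts per library on Foxp3, the lineage-defining transcription factor, and 78 to 125 on Ikzf2, which encodes Helios. Ctla4, another Treg marker, had 1 count in total. Among markers of other cells, all 6 erythroid genes were at 0, and so were the B-cell genes Cd79a and Ms4a1 and the myeloid genes Lyz2, Csf1r, Fcer1g and Tyrobp. The summed B-cell markers, mostly Ighm, ran from 41.0 to 72.1 CPM (counts scaled to 1000000 counts on genes) in WT and from 32.5 to 65.4 in KO libraries. The 6 myeloid markers summed to 0 in all WT libraries and to 4 counts in KO replicate 2. The 6 markers of double-positive thymocytes, with Rag2 and Ptcra at 0, summed to 6 counts over the WT and 13 over the KO libraries, or 4.10 to 17.8 CPM against 13.0 to 25.6 CPM. Of the 6 thymic epithelial markers, 4 were at 0, and the others had 1 count over WT and 1 over KO libraries. The part of these other cells in the results below was not tested.

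The genes removed in the KO mice make miRNAs, which bind mRNAs mainly by pairing of bases 2 to 8, the seed, with the 3' UTR. Their main mature strands are shown first because matches to them were then searched in the 6 genes (RefSeq, GRCm38.p6). Capitals mark the seed.
miR-181a-5p: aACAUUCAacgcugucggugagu
miR-181b-5p: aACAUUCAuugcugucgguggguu
Both strands have the seed ACAUUCA, as do miR-181c-5p and miR-181d-5p from chromosome 8. The same 2 mature strands are also made from Mir181a-2 and Mir181b-2 on chromosome 2, which the mice kept.

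Of the 6 genes, Cd69 and S1pr1 held a match of at least 7 bases in the 3' UTR of the longest coding transcript of GENCODE vM21 (GRCm38). A match was TGAATGT, which pairs with bases 2 to 8, or GAATGTA, which pairs with bases 2 to 7 and has an A after them, read on the transcript strand only. Together they form the 8-base match TGAATGTA. Such a match of 7 or 8 bases was held by 20.7% of 21028 protein-coding genes with a 3' UTR, and by 19.3% of the 8748 of these whose 3' UTR has 500 to 2000 bases. The windows below are shown with the match in capitals, in the order Cd69 (chr6:129267852-129267881, minus strand), S1pr1 (chr3:115710781-115710810 and chr3:115710719-115710748, minus strand) and Il7r (chr15:9508327-9508356, minus strand).
Cd69, 8 bases: gtaggaagagcTGAATGTAggtacaggaag
S1pr1, first 7-base match: ttctgattttcGAATGTAtttgtttctttg
S1pr1, second 7-base match: gttaacaccacTGAATGTgtagttcttaag
Il7r, transcript Il7r-204 only: tcTGAATGTgagtttcaatcccgaaagttt
The Cd69 match started at base 391 of a 3' UTR of 936 bases, and the S1pr1 matches at bases 996 and 1058 of 1362. The Il7r match lay at base 3 of the 3' UTR of Il7r-204 and was outside that of the longest transcript, Il7r-201. Klf2 and Cd44 each held 1 copy of the 6-base core GAATGT alone, S1pr1 held 2 such copies besides its longer matches, and Ccr7 held none. The core was present in 32.2% of all genes. These matches are a description of letters and were not tested as binding sites.

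**Figure D1:**
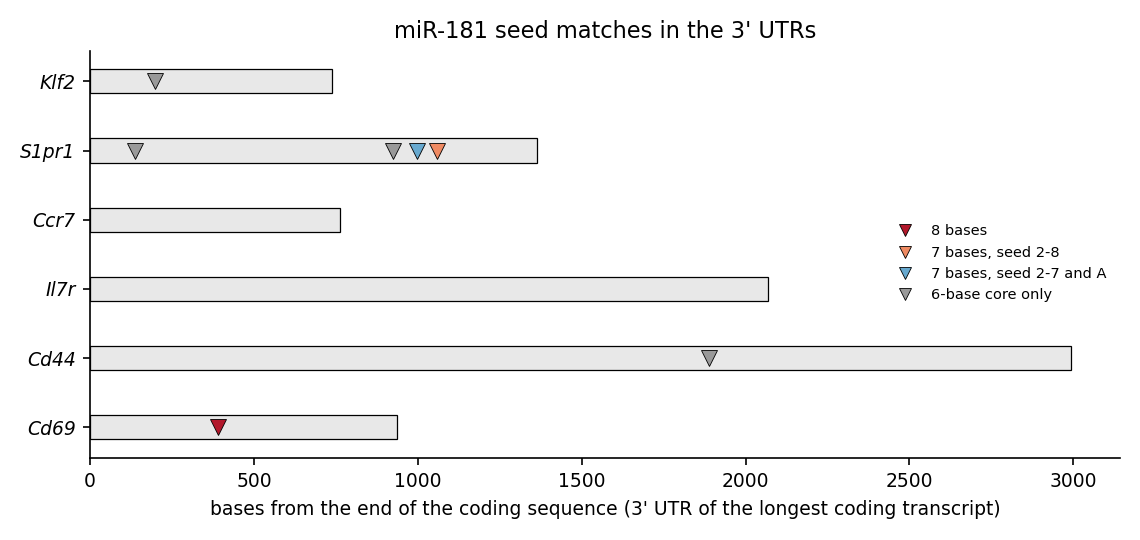
Position of miR-181 seed matches (triangles, coloured by length of match) along the 3' UTR (bars, in bases from the end of the coding sequence) of the longest coding transcript of each gene. Cd69 has the 8-base match at base 391 and S1pr1 has matches of 7 bases at 996 and 1058, while Ccr7 and Il7r have none in these transcripts.

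All 6 genes were measurable as fragments and none differed between KO and WT Treg cells beyond the spread between libraries. The fragment counts summed over the 6 libraries were 275 for Klf2, 199 for Ccr7, 161 for S1pr1, 144 for Cd69, 133 for Il7r and 64 for Cd44, and each gene had at least 10 counts in at least 3 libraries, the limit for entering the test. In the quasi-likelihood test of edgeR with Benjamini-Hochberg adjustment over 1391 genes, 0% were lower and 0% were higher in KO at an adjusted p under 0.05, and DESeq2 on the same genes called 0 as well. At an unadjusted p under 0.05, 2.66% of the genes tested were lower and 2.52% were higher, and 0 of the 6 genes were among them. By DESeq2, 24 of the 1391 genes (1.73%) had an unadjusted p under 0.05 in either direction. For 4.67% of the genes tested all 3 KO libraries lay below all 3 WT libraries in CPM, and for 2.66% all lay above, whereas for each of the 6 genes the genotypes overlapped. The log2 fold change was negative for 5 of the 6, with a median of -0.19 against a median of 0.00 (-0.0040) and 50.7% negative over all genes tested. The exact two-sided permutation test over the CPM of 3 against 3 libraries, which cannot give p under 0.1, gave p between 0.3 and 0.7 for the 6 genes (0.7 for each after Benjamini-Hochberg adjustment over the 6 tests).

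Compared per length of the longest coding transcript, Klf2 gave the most fragments, with 114 CPM per kilobase ± 30.9 (SD over 6 libraries), followed by Ccr7 at 74.2 ± 5.72, Cd69 at 62.6 ± 12.6, S1pr1 at 38.5 ± 10.5, Il7r at 27.5 ± 15.8 and Cd44 at 8.60 ± 1.76. Ccr7 lay above Cd69, Cd69 above S1pr1 and Il7r above Cd44 in 6 of 6 libraries. Klf2 lay above Ccr7 in 5 libraries, with KO replicate 3 as the exception, and S1pr1 lay above Il7r in 5. Counting took place over all annotated exons, which for Cd69 include retained introns, and per kilobase of all exons Cd69 was at 16.2 CPM, below S1pr1 and Il7r. On that scale the 6 genes ranked between the 93.0 and 99.6 percentile of 21890 protein-coding genes, all libraries averaged. No exon of another annotated gene overlapped an exon of any of the 6 on either strand.

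**Figure D2:**
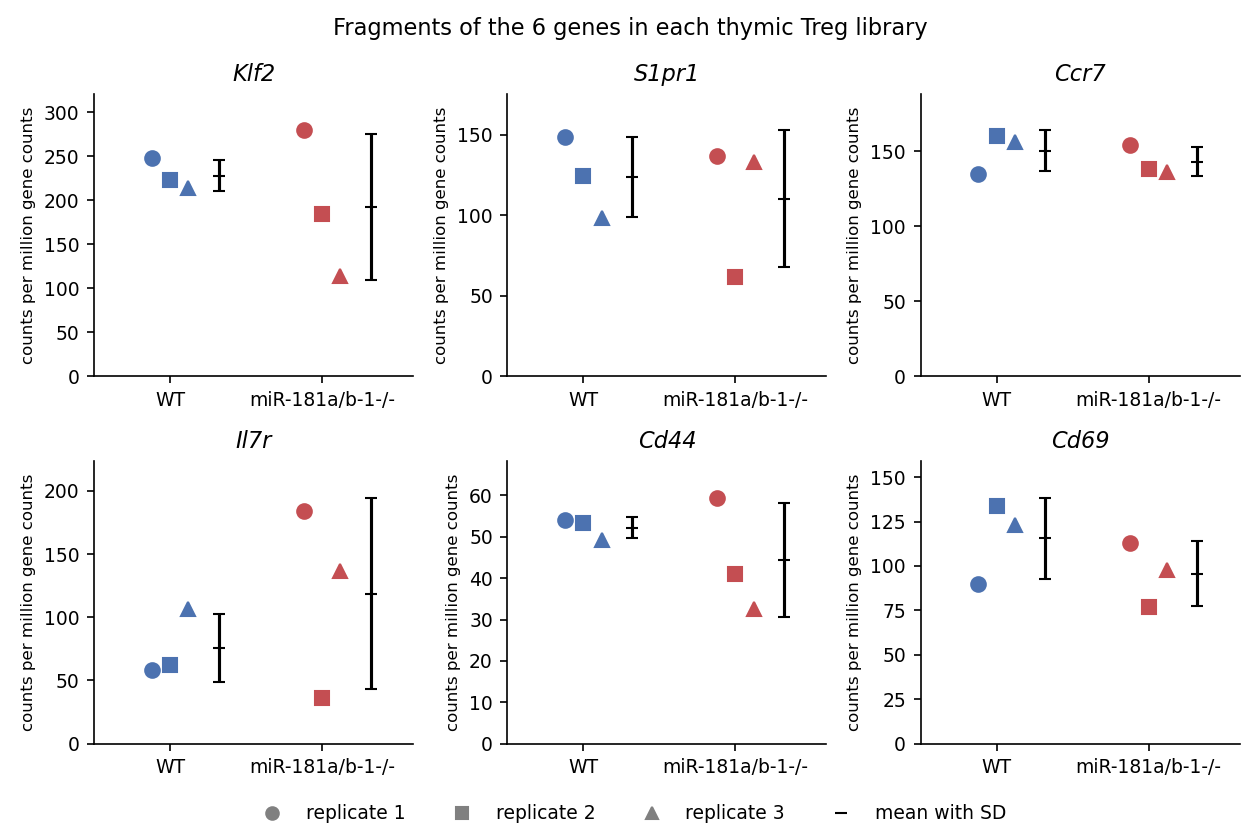
CPM, counts per 1000000 counts on genes (vertical axes, starting at 0) of each gene in the 3 WT (blue) and 3 miR-181a/b-1-/- (red) libraries, with replicate numbers as symbols and mean with SD (n = 3) as black bars. The genotypes overlap for every gene, and Klf2, S1pr1 and Il7r spread most in miR-181a/b-1-/- libraries.

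Klf2, the regulator at the head of the egress programme, lies on the plus strand of chromosome 8 of GRCm38 from 72319033 to 72321656 and has 1 annotated transcript (ENSMUSG00000055148.7). It had 248, 223 and 213 CPM in WT replicates 1, 2 and 3 and 279, 185 and 114 CPM in KO replicates 1, 2 and 3, on 55, 50 and 52 against 47, 36 and 35 counts. The WT libraries lay close together, and KO libraries lay both above and below all of them. Means were 228 ± 17.7 CPM (SD, n = 3) in WT and 193 ± 83.1 CPM (SD, n = 3) in KO. On the log2 scale KO differed from WT by -0.29 (standard error, SE, 0.29; adjusted p = 0.980 by edgeR's quasi-likelihood test), with a 95% interval of 0.539-fold to 1.23-fold. Without KO replicate 1 it was -0.57 and without KO replicate 3 it was -0.06, so that the value rested on these libraries. Because the samples are bulk, fewer cells that express a gene and less RNA per cell cannot be told apart in this or any other value here.

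S1pr1, the egress receptor and a transcriptional target of KLF2, lies on the minus strand of chromosome 3 from 115710433 to 115715072 (ENSMUSG00000045092.8, 1 transcript). Its levels were 149, 125 and 98.5 CPM in the WT libraries and 137, 61.5 and 133 CPM in KO replicates 1, 2 and 3. KO replicate 2, with 12 counts, was the lowest of all libraries and the other KO libraries lay within the WT range. With TMM normalization KO replicate 3 (168 CPM) was instead the highest library, next to WT replicate 1 (164 CPM). This gave a log2 fold change of -0.12 (SE 0.33; edgeR adjusted p = 0.980), with a 95% interval of 0.575-fold to 1.48-fold. It became 0.14 without KO replicate 2 and -0.42 without KO replicate 3. S1pr1 therefore had no stable direction, and the interval left room for a change of either sign.

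The ratio of S1pr1 to Klf2 counts set KO replicate 3 apart. There were 60.0, 56.0 and 46.2 S1pr1 counts per 100 Klf2 counts in the WT libraries and 48.9, 33.3 and 117 in KO replicates 1, 2 and 3. This ratio does not depend on the scaling of a library. In KO replicate 3 Klf2 made up 17.5% of the counts on the 6 genes (95% Wilson interval 12.9% to 23.4%), against 28.6% to 33.7% in WT libraries and 30.1% and 34.3% in the other KO libraries. The intervals cover counting error only, since PCR copies are not independent molecules. KO replicate 3 was also the library with the most counts on genes (307840), the smallest share of them on protein-coding genes (21.1%) and the most records given to no gene (80.3%), and the part of these differences in the ratio was not tested.

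Ccr7, the receptor for the medulla and for lymph nodes, lies on the minus strand of chromosome 11 from 99144196 to 99155077 (ENSMUSG00000037944.8, 1 transcript). It had 135, 160 and 156 CPM in WT and 154, 138 and 136 CPM in KO libraries. Over all 6 libraries it was the steadiest of the 6 genes relative to its mean level, although Cd44 and Klf2 varied less between WT libraries. The means were 150 ± 13.5 CPM and 143 ± 9.90 CPM (SD, n = 3 each). KO against WT was -0.06 on the log2 scale (SE 0.28; edgeR adjusted p = 0.990), and the 95% interval ran from 0.640-fold to 1.44-fold, which leaves out a change of 2-fold in either direction. The intervals of Klf2, S1pr1 and Cd69 left out such a change as well, and those of Il7r and Cd44 did not. The spread of the 3 KO libraries was below that of counting alone, at 0.146 times the value expected from counting error.

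Cd69, which opposes egress and is high on recently selected thymocytes, lies on the minus strand of chromosome 6 from 129267325 to 129275436 (ENSMUSG00000030156.5, 5 transcripts). It had 90.1, 134 and 123 CPM in the WT and 113, 76.9 and 97.5 CPM in the KO libraries. The lowest library was KO replicate 2 and the highest WT replicate 2, with WT replicate 1 within the KO range. KO Treg cells had a log2 fold change of -0.25 (SE 0.31; edgeR adjusted p = 0.980), with a 95% interval of 0.541-fold to 1.30-fold. It stayed negative without each library in turn, between -0.43 (without WT replicate 1) and -0.12 (without WT replicate 2; -0.14 without KO replicate 2), on 80 counts in WT and 64 in KO. Per 100 counts of Klf2, S1pr1 and Ccr7 together, Cd69 gave 16.9, 26.3 and 26.3 counts in WT and 19.8, 20.0 and 25.4 in KO libraries. The KO values lay within the WT range, with means of 23.2 ± 5.41 in WT and 21.7 ± 3.19 in KO (SD, n = 3 each).

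**Figure D3:**
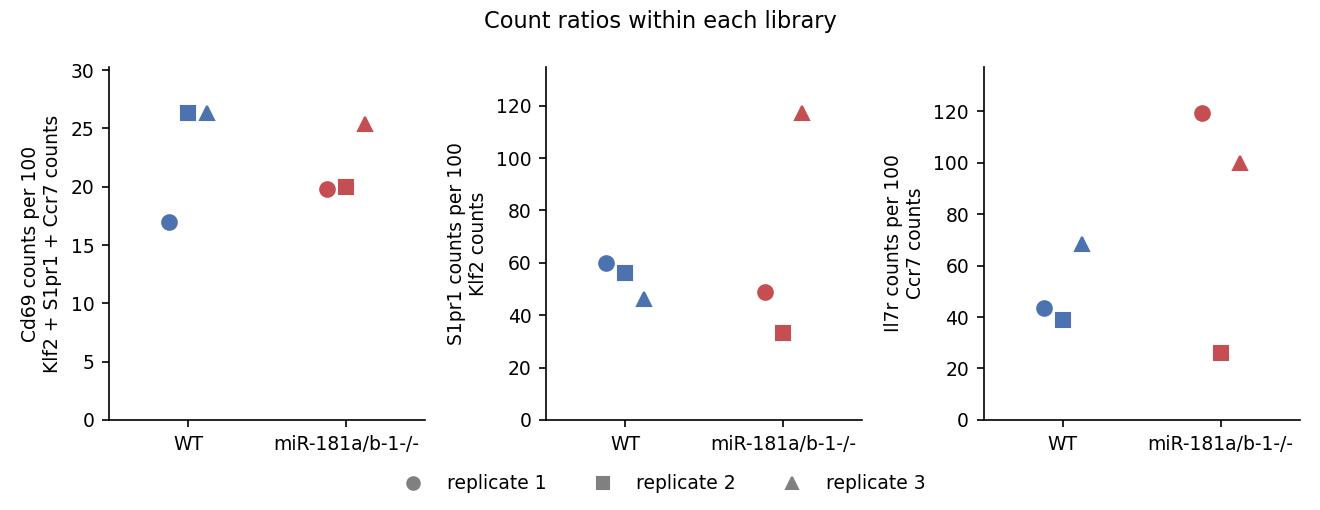
Counts of Cd69 per 100 counts of Klf2, S1pr1 and Ccr7 together (left), of S1pr1 per 100 Klf2 counts (middle) and of Il7r per 100 Ccr7 counts (right) in each library, all axes starting at 0. The Cd69 ratio is 19.8 to 25.4 in miR-181a/b-1-/- libraries, within the WT range, and KO replicate 3 stands apart in the S1pr1 ratio at 117.

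Il7r had the largest fold change of the 6 genes and, set against counting error, the widest spread in both genotypes. It lies on the minus strand of chromosome 15 from 9505788 to 9530176 (ENSMUSG00000003882.5, 4 transcripts). Its counts were 13, 14 and 26 in the WT and 31, 7 and 42 in the KO libraries, which corresponds to 58.6, 62.3 and 107 CPM in WT against 184, 35.9 and 136 CPM in KO. KO replicates 1 and 3 lay above all WT libraries and KO replicate 2 lay below all of them. Means were 75.9 ± 26.8 CPM in WT and 119 ± 75.7 CPM in KO (SD, n = 3 each). The log2 fold change was 0.66 (SE 0.40, unadjusted p = 0.113, adjusted p = 0.980 by edgeR's quasi-likelihood test), with a 95% interval of 0.891-fold to 2.79-fold.

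Single libraries moved the value of Il7r by more than 1.5 times. Without KO replicate 2 the log2 fold change was 1.05 (unadjusted p = 0.00517, adjusted p = 0.615, edgeR), without WT replicate 3 it was 0.98, and without KO replicates 1 or 3 it was 0.38 and 0.40. Between the 3 KO libraries Il7r varied 8.82 times as much as counting error alone gives, compared with a median of 1.30 over all genes tested, and more than 91.2% of them. Between WT libraries the factor was 2.04, against a median of 1.23. Klf2 and S1pr1 also varied more between KO libraries (4.80 and 4.08 times counting error) than between WT libraries (0.325 and 1.24), whereas Cd44, Cd69 and Ccr7 stayed at or below 0.731 in KO. The KO values of Klf2 and S1pr1 exceeded those of 85.5% and 82.9% of the genes tested. Within a library there were 43.3, 38.9 and 68.4 Il7r counts per 100 Ccr7 counts in WT and 119, 25.9 and 100 in KO replicates 1, 2 and 3. KO replicate 2 was also the library with 4 counts on myeloid markers, and whether this bears on Il7r was not tested.

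**Figure D4:**
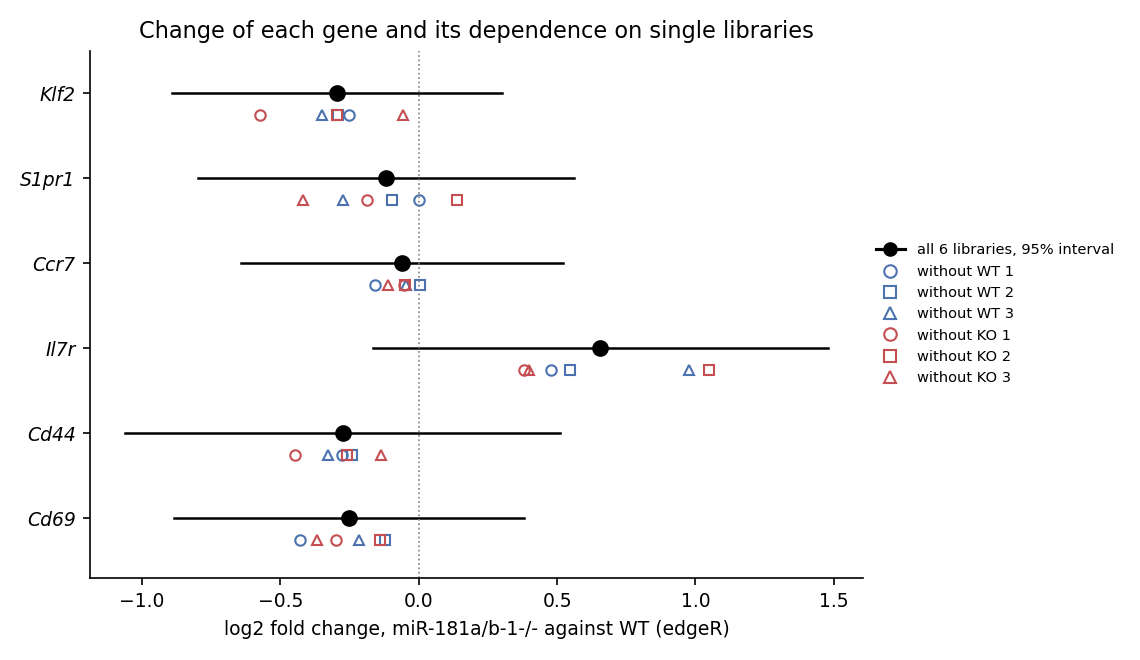
Log2 fold change of each gene in miR-181a/b-1-/- against WT libraries with its 95% interval from edgeR (black), and the fold change after leaving out 1 library (open symbols, WT blue, KO red). All intervals include 0, and Il7r ranges from 0.38 to 1.05 depending on the library left out.

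Cd44, the adhesion receptor of experienced T cells, lies on the minus strand of chromosome 2 from 102811141 to 102901665 (ENSMUSG00000005087.17, 9 transcripts) and had the fewest fragments, 12 in each WT library and 10, 8 and 10 in the KO libraries. The levels were 54.1, 53.4 and 49.3 CPM in WT and 59.4, 41.0 and 32.5 CPM in KO. KO replicate 1 lay above all WT libraries and the other KO libraries below them, while with TMM normalization KO replicate 1 (60.3 CPM) fell within the WT range of 54.1 to 61.0. Between genotypes this was a log2 change of -0.27 (SE 0.38; edgeR adjusted p = 0.980), and the 95% interval of 0.479-fold to 1.43-fold was wide at this depth. Without KO replicate 1 the change was -0.45 and without KO replicate 3 it was -0.14.

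Summed over the 6 genes, the counts were 163, 170 and 182 in the WT and 156, 105 and 200 in the KO libraries, or 746 ± 11.5 CPM and 705 ± 200 CPM (SD, n = 3 each). The WT libraries lay within 734 to 757 CPM, and KO replicate 1 (927 CPM) lay above them and KO replicates 2 (538 CPM) and 3 (650 CPM) below. After TMM normalization, a scaling chosen for the sum after seeing the data, the WT range was 812 to 864 CPM and KO replicate 3 (820 CPM) lay inside it, between KO replicates 1 (941 CPM) and 2 (592 CPM). No test was made of this sum, because the genes were chosen with results of these data known.

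Among further genes of homing and egress, 13 of 18 were tested, with 6 negative and 7 positive log2 fold changes, a median of 0.04, and 0 past an adjusted p of 0.05. Among the most abundant were Coro1a, an actin regulator needed for egress (log2 fold change 0.06), Gnai2, a G protein subunit that relays chemokine signals (-0.01), and Selplg, a selectin ligand (0.04). For each of these 3 the edgeR adjusted p was between 0.990 and 0.998, and the sign turned for every one of them in at least 2 of 14 alternative analyses.

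Genes of immature thymocytes had 5 of 16 tested, 4 with a negative and 1 with a positive fold change (median -0.29, 0 past an adjusted p of 0.05), and Rag2 and Ptcra were at 0. Satb1, a chromatin organizer of thymocytes, was at -0.01, Lef1 and Tcf7, related transcription factors of early T cells, were at -0.37 and -0.29, and Tox was at 0.03. The summed list ran from 534 to 631 CPM in WT and from 472 to 731 CPM in KO libraries. The members too low to be tested pointed the other way. All 8 that had counts (2 to 36 over the 6 libraries, among them Themis, Cd24a, Cd8a, Cd8b1, Arpp21 and Rag1) had a higher mean CPM in KO. Themis, a signalling adaptor of thymocytes undergoing selection, had 6, 3 and 4 counts in WT and 10, 4 and 9 in KO libraries. Together the 8 genes had 10, 9 and 7 counts in WT and 18, 13 and 19 in KO replicates 1, 2 and 3, or 45.0, 40.1 and 28.7 CPM against 107, 66.6 and 61.7 CPM. All 3 KO libraries thus lay above all WT libraries for this sum, which was formed after the values were seen and is given without a test. Among single genes that reached the limit for the test, 2.66% had KO libraries above WT in this way. The share among genes below that limit, or among sums of such genes, was not counted. Whether the low counts of the 8 immature-thymocyte genes bear on the 6 genes was not tested. In the other 5 lists the members below the limit with counts had a higher mean CPM in KO for 3 of 4 (homing and egress), 9 of 13 (effector or recirculated Treg), 1 of 2 (Treg identity), 3 of 9 (T-cell receptor response) and 3 of 3 (interleukin-7 and survival). Genes linked to effector or recirculated Treg cells had 3 of 18 tested and 0 past the threshold, with Tnfrsf9, encoding the costimulatory receptor 4-1BB, at 0.33, Maf at 0.41 and Itgb1, the beta1 integrin, at -0.13. The signs of Maf and Itgb1 rested on single libraries, since Maf was at -0.17 without KO replicate 1 and Itgb1 at 0.20 without KO replicate 2. Ccr6, a chemokine receptor known from recirculating Treg cells, had 5, 10 and 9 counts in WT and 8 in each KO library, too few to enter the test. S100a4, also too low to be tested and named after its values were seen, had 4, 1 and 4 counts in WT and 12, 5 and 6 in KO. Together the 13 members of this list below the limit had 194, 93.5 and 160 CPM in WT. In KO replicates 1, 2 and 3 they had 321, 179 and 117 CPM, so the genotypes overlapped. The list summed to 218 to 392 CPM in WT and 270 to 606 CPM in KO, with KO replicate 1 the highest library.

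Of 12 Treg identity genes, 10 were tested, 7 with negative and 3 with positive fold changes and 0 past the threshold. Il2ra and Il2rb, chains of the interleukin-2 receptor, were at -0.35 and -0.23, Gpr83 at -0.44 and Ikzf2 at 0.21. Single libraries set the size for Gpr83, which was at -0.08 without WT replicate 2 and at -0.83 without KO replicate 3. Of 10 genes of interleukin-7 signalling and survival, 7 were tested, with 5 negative and 2 positive and 0 past the threshold. Il2rg, the common gamma chain that pairs with the product of Il7r, was at 0.52 (SE 0.30, adjusted p = 0.980, edgeR), on 17, 21 and 27 counts in WT and 28, 28 and 31 in KO. Bcl2, a survival factor induced by interleukin-7, was at -0.54 (SE 0.30, adjusted p = 0.974, edgeR), on 28, 30 and 23 counts in WT and 14, 16 and 23 in KO. The survival factor Mcl1 and the kinase Jak1 were at -0.03 and -0.09.

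Of 18 genes that respond to or tune T-cell receptor signals, 8 were tested, 6 with negative and 2 with positive fold changes and 0 past an adjusted p of 0.05. Nfkbia, an inhibitor of NF-kappaB, was at -0.28, the surface receptors Cd5 and Cd6 at 0.03 and -0.17, and the AP-1 subunit Junb at 0.22. Of the 46 genes tested over the 6 lists, 1 was lower and 0 were higher at an unadjusted p under 0.05, where 2.66% and 2.52% of all 1391 genes tested were. It was Jun, another AP-1 subunit, which is named after its values were seen. It had 14, 21 and 18 counts in WT and 7, 12 and 2 in KO replicates 1, 2 and 3, which gave -1.22 on the log2 scale (SE 0.45; edgeR adjusted p = 0.815). Its lowest value was in KO replicate 3, the library in which Klf2 was lowest. The change was -0.62 without KO replicate 3 and -1.93 without KO replicate 2 (edgeR adjusted p = 0.991 and 0.0936).

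The genes most like each of the 6 over the 6 libraries were sought among the 1391 genes tested, by Pearson's r of log2 CPM, as a description without a test. Among those most like Klf2 were Fam107b (r = 0.985) and Bmyc. S1pr1 was most like Wls (0.980), Atrx and Tpm4, Ccr7 most like Mtrex (0.990), Cyba and Tnfrsf18, Il7r most like Atp5e (0.957), Baz2b and Snrpb2, Cd44 most like Appl1 (0.978), Bmyc and Ucp2, and Cd69 most like Ptpn1 (0.981), Ccnt1 and S100a10. The points are 6 libraries that share their depth and scaling over all genes, and the values were picked as the highest of 1391 genes.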

How the data were processed

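The authors deposited raw HTSeq counts per gene for each library. These rest on STAR alignments to GRCm38.p6, made from reads without adapters (Flexbar) or ribosomal sequence (Bowtie 2). The annotation release and strand setting are not given in the sources used here. Of 54547 gene identifiers, 53620 matched GENCODE vM21 without their version. Records given to no gene (75.7% to 80.3%) stayed out of library sizes. The deposited miRNA table, with the authors' own comparison, was not used.

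The 1391 genes that reached 10 counts in 3 or more of the 6 libraries were tested with edgeR 4.0.16 (TMM, quasi-likelihood test, no covariate, R 4.3.3), and KO was compared with WT at an adjusted p of 0.05. CPM are counts per 1000000 counts on genes. TMM factors (0.876 to 1.12) apply to the counts on the 1391 genes and enter the fit; CPM values carry none unless stated. Spread against counting error is Pearson's chi-square of the 3 libraries of a genotype divided by its 2 degrees of freedom. Expected counts were proportional to the totals on the 1391 genes times the TMM factors. Permutation tests used SciPy 1.17.1. The edgeR test was checked on simulated counts with known fold changes. Alternatives were DESeq2 1.42.0, other filters and normalizations, protein-coding genes only, a replicate block and leaving out each library. The 6 genes and the lists were chosen with earlier results of these data known. Besides the 6, the text names the up to 4 most abundant genes of each list and the 3 most alike genes, apart from some genes that are not reported here. Each replicate was a sort from pooled thymi, described by the authors as biological replicates.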

Additional observations from a re-analysis of the deposited data

How the results depend on the processing

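In no alternative did any of the 6 genes pass an adjusted p of 0.05. The number of genes lower and higher in KO at that threshold, 0 and 0, became 1 and 7 without a filter on low counts (16588 genes) and 0 and 5 with protein-coding genes only, and ranged from 0 to 1 and from 0 to 8 when 1 library was left out (8 higher without KO replicate 1, 2 without KO replicate 2, and 1 lower and 3 higher without KO replicate 3). The 6 genes were not among those called. The cause was not tested.

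Leaving out 1 library gave log2 fold changes of -0.57 to -0.06 for Klf2, -0.42 to 0.14 for S1pr1, -0.16 to 0.0039 for Ccr7, 0.38 to 1.05 for Il7r, -0.45 to -0.14 for Cd44 and -0.43 to -0.12 for Cd69. Signs turned for S1pr1 without KO replicate 2 (0.14) and for Ccr7 without WT replicate 2 (0.0039), and in no other alternative. Il7r and Cd44 did not reach 10 counts in every library and have no value under that filter. The difference in the summed CPM, KO minus WT, was -41.1 and ranged from -152 to 42.2 without 1 library; with TMM normalization it was -42.1 and with scaling to protein-coding counts -48.2, each multiplied by 1 factor for all libraries to bring it to the scale of counts on genes, both chosen after seeing the data. Without that factor they were -47.5 and -203.

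Replicate numbers are shared between the genotypes, but nothing states that they mark a common batch. Same-numbered libraries deviated together with r = 0.219, 0.0807 and 0.176, 1 of them under 0.1, so they were not taken as pairs, although each library correlated best with its own number. With the replicate block the log2 fold changes were -0.31 for Klf2, -0.13 for S1pr1, -0.06 for Ccr7, 0.60 for Il7r, -0.27 for Cd44 and -0.26 for Cd69, and 0 genes were called in either direction.

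Of the listed genes named, 11 changed sign in at least 1 alternative, and most others moved by over 1.5 times without 1 library. Under DESeq2, RLE normalization and protein-coding genes only, Gnai2 was at 0.0075, 0.0062 and 0.0049 and Satb1 at 0.0062, 0.0072 and 0.016, and under the replicate block Gnai2 was at 0.023 and Satb1 at 0.0020. Without 1 library the values ranged from -0.25 to 0.24 for Coro1a, -0.26 to 0.14 for Gnai2, -0.091 to 0.16 for Selplg, -0.15 to 0.058 for Satb1, -0.27 to 0.30 for Tox, -0.17 to 0.93 for Maf, -0.38 to 0.20 for Itgb1, -0.077 to 0.18 for Cd5, -0.41 to 0.062 for Cd6, -0.21 to 0.15 for Mcl1 and -0.25 to 0.17 for Jak1, and, with no change of sign, from -0.83 to -0.08 for Gpr83, -0.65 to -0.20 for Lef1, -0.44 to -0.12 for Tcf7, -0.44 to -0.13 for Nfkbia, 0.04 to 0.43 for Junb, -0.53 to -0.21 for Il2ra, -0.34 to -0.15 for Il2rb, 0.10 to 0.28 for Ikzf2 and -1.93 to -0.62 for Jun. Tnfrsf9, Il2rg and Bcl2 moved by less.

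The number of the 6 genes with a miR-181 seed match was 2 for the longest transcript (20.7% of all genes with a 3' UTR hold one), 3 for any coding transcript (22.0% of all) and 4 for the 6-base core (32.2% of all). Counts of 7 to 55 per gene and library limit the precision.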
